A study of Canis lupus familiaris with 18 samples.

Results

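The cytosolic ribosomal protein genes were examined in RNASeq counts from canine high grade oligodendroglioma (HGO). Members were the rows whose symbol begins with RPL or RPS followed by a digit, or is RPLP0, RPLP1, RPLP2 or RPSA. The 8 rows of RPS6K kinases were left out, and no member symbol carried a pseudogene suffix. The rule found 53 genes among 29993 rows, of which 16324 had a symbol. They comprised 21 proteins of the small subunit, 29 of the large subunit and 3 paralogs, RPL10L, RPL22L1 and RPL36AL. Of a list of 77 standard ribosomal protein genes, 50 had a row under their symbol and 27 did not, among them RPS3A, RPLP1, RPLP2, RPL11, RPS19 and RPL10. RPS3A was known from the study as lower in French bulldogs when this family was chosen, but no row carries that symbol, so no value is given for it here.

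The 18 libraries were made from formalin-fixed, paraffin-embedded prosencephalic HGO tissue of pet dogs, resected before any trial treatment, with ribosomal RNA removed before sequencing. Of these, 11 were labelled French bulldog, and the comparison group held 4 boxers (numbered 1, 3, 4 and 5) and 3 Boston terriers (numbered 2, 6 and 7). Each library was labelled as 1 dog, and 1 case number stands in the library names of both French bulldog 2 and French bulldog 8. The study lists these 2 with the same age, sex and tumor location, so they may be 1 dog. The study asked whether HGO of French bulldogs differs in expression from HGO of the other breeds, which belong to the same clade.

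Ribosomal proteins assemble with ribosomal RNA into the small subunit, which reads the messenger RNA, and the large subunit, which forms the peptide bonds. Their genes are transcribed at high level in every cell, and most of their transcripts begin with a terminal oligopyrimidine (TOP) tract through which mTOR signalling adjusts their translation. Because most of these proteins are needed in equal number, the genes are usually expressed in concert, and their expression is known to be high in growing and dividing cells.

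The totals counted on genes were 8212452 to 13169880 per dog, and a floor of 3 counts, under which no level is read, came to 0.228 to 0.365 CPM (counts scaled to library size). This limit covers counting error only. Of the 53 members, 52 passed the filter on low counts, each with 36 counts or more in every dog and a mean of 103 to 3339 counts. Ribosomal protein genes have many processed pseudogenes of near-identical sequence, so reads may have been split among copies and the level of a single member is uncertain. RPL10L, a paralog of RPL10 known from testis, had 0 to 3 counts per dog and did not pass. Of the markers of the oligodendrocyte lineage, French bulldog 6 had 0 counts of OLIG2 and NKX2-2, 2 of SOX10 and 1 of SOX8, and its 10 macrophage and microglia markers summed to 7510 normalised CPM against 55.7 to 389 in the other French bulldogs and 95.3 to 193 in the comparison group. The main counts and the fold changes of named members are therefore also given without this library.

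Together the members held 0.440% to 0.873% of the counts in French bulldogs and 0.305% to 0.783% in the comparison group, with means of 0.593% ± 0.123 (SD, n = 11) and 0.536% ± 0.155 (SD, n = 7). Without French bulldogs 2 and 8, which share a case number, the French bulldog mean was 0.552% ± 0.0787 (SD, n = 9). The difference in means was 0.0572 percentage points, or 0.0187 without boxer 4 and 0.0984 without Boston terrier 2. A single gene without a symbol held 17.4% to 33.4% of the counts of a dog, and without it the means were 0.799% ± 0.149 and 0.693% ± 0.184, a wider difference that still lay within the SD of either group. Their summed level, as CPM after TMM normalisation, ranged from 4167 in French bulldog 9 through a median of 5957 to 8756 in French bulldog 6, with French bulldog 8 next at 8199. It was 3003, 4190, 4334 and 5568 in boxers 4, 3, 5 and 1, and 5443, 5829 and 7355 in Boston terriers 6, 7 and 2. The boxers lay at the low end, with 3 of 4 below every Boston terrier, and French bulldogs spanned nearly the whole range. In bulk tissue, fewer cells of a type and less RNA per cell cannot be told apart.

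**Figure D1:**
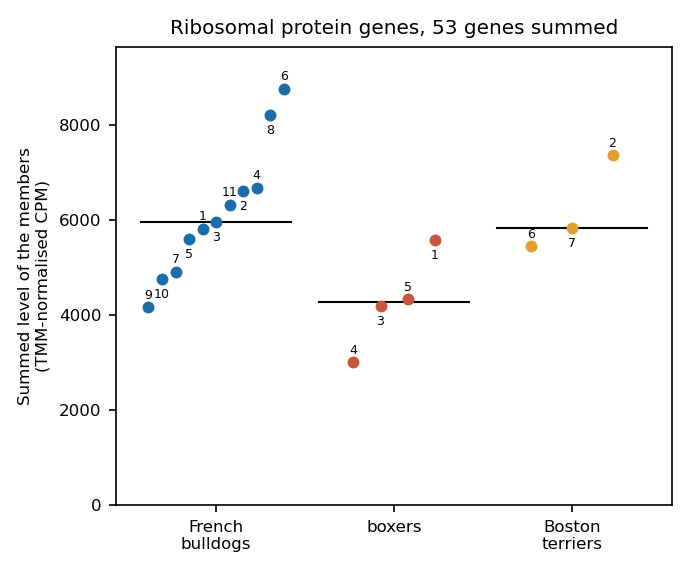
Summed level of the 53 ribosomal protein genes (TMM-normalised CPM, vertical axis from 0) in each dog, with French bulldogs, boxers and Boston terriers on the horizontal axis. Each point is 1 dog with its number, and the line is the median. Boxer 4 was lowest at 3003 and French bulldog 6 highest at 8756.

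Against the comparison group, no member passed the adjusted threshold, while most members had a slightly higher fitted level in French bulldogs. By edgeR's quasi-likelihood test, with p-values adjusted over all genes tested, 0 of 52 members had an adjusted p under 0.05, where 0.00606% of all genes tested did (1 of 16495), and the smallest adjusted p of a member was 0.433. DESeq2 called 0 members too, with a smallest adjusted p of 0.0842 for RPS21, against 0.258% of all genes, and had 12 members higher at an unadjusted p under 0.05, against 6.41% of all genes (7 without French bulldog 6, against 5.82%). By edgeR, at an unadjusted p under 0.05, 9 members had a higher level in French bulldogs (17.3%, against 7.02% of all genes) and 0 a lower one (against 3.55%). Log2 fold changes were positive for 47 members and negative for 5, where 53.7% of all genes had a positive one. These counts were 44 and 8 without French bulldog 6, 51 and 1 without Boston terrier 2, and 43 and 9 without boxer 4. With all dogs, the median log2 fold change was 0.30 over the members and 0.04 over all genes. No member separated the groups without overlap, as 0.00606% of all genes did with French bulldogs above and 0.0485% with French bulldogs below.

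The 9 members comprised 6 of 21 small subunit genes (4 without French bulldog 6), 2 of 29 large subunit genes and 1 paralog (2 and 1 without it). The median log2 fold change was 0.32 over the small subunit genes and 0.27 over the large subunit genes. Without French bulldog 6, 7 members were higher at an unadjusted p under 0.05, against 6.92% of all genes, and the median was 0.23. The count was 5 without French bulldog 8 (9.62% of members, against 6.25% of all genes), 5 without boxer 4 (against 6.17%) and 16 without Boston terrier 2 (30.8%, against 6.32%). It was 5 with French bulldogs 2 and 8 summed as 1 dog (9.62%, against 6.45%). Without boxer 5 it was 3, and the share of members, 5.77%, was then close to the 5.14% of all genes. When each library was scaled to its own sum over the members, 2 were higher (RPS21 and RPL23, against 1.05% of all genes) and 1 lower (RPL13, against 10.1%). That scaling moved the median of all genes to -0.27 and that of the members to 0.00. It makes the sum over the members equal in every dog, so their median near 0 is built in.

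**Figure D2:**
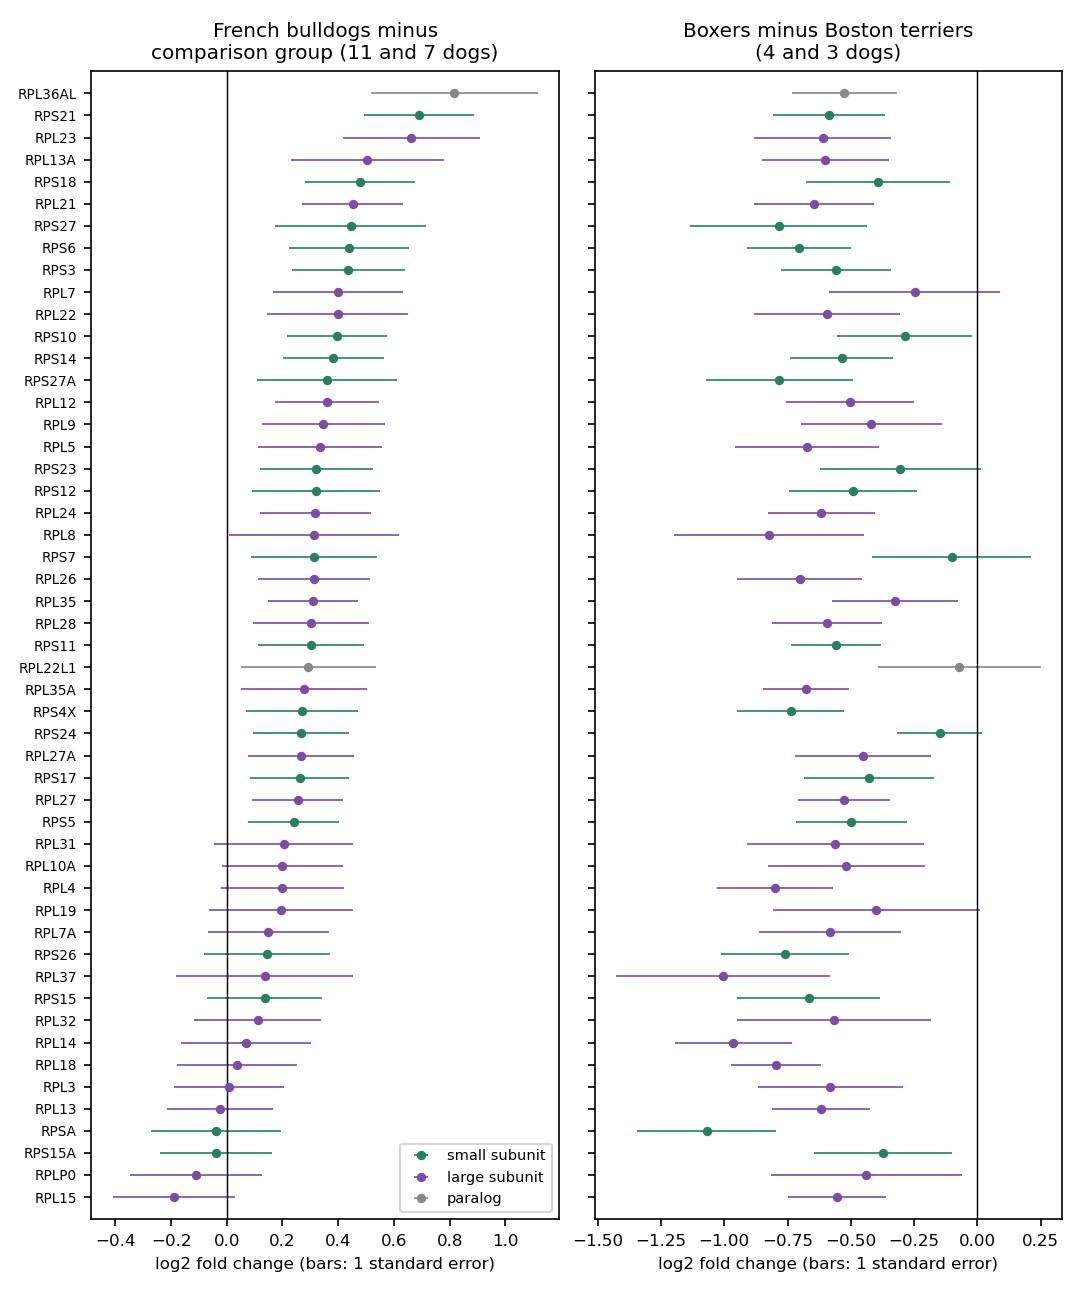
Log2 fold change (horizontal axes, points) with 1 standard error (bars) of 51 of the 52 members tested, for French bulldogs minus the comparison group (left) and boxers minus Boston terriers (right), coloured by subunit. On the left 46 of 51 points lie above 0, and on the right all 51 lie below 0.

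Of the small subunit genes, RPS21, which encodes a small protein of that subunit, came nearest to separating the groups. Its level in French bulldogs was 75.7 normalised CPM at the lowest (dog 3), 93.8 at the median and 174 at the highest (dog 8). It was 43.5, 45.3, 62.1 and 62.7 in the boxers and 68.2, 71.3 and 97.4 in the Boston terriers. Thus 6 of 7 comparison dogs lay below every French bulldog, and Boston terrier 2 lay among them. The log2 fold change was 0.69 with a standard error of 0.20 (edgeR, p = 0.00234, adjusted p = 0.433), and it was 0.69 without French bulldog 6.

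RPS18 lies in the head of the small subunit, close to the tRNA sites. It ranged from 68.3 through 128 to 155 normalised CPM in French bulldogs and from 48.0 through 80.7 to 129 in the comparison group, and the log2 fold change was 0.48 (edgeR p = 0.0251, standard error 0.20). Boxer 4 was the lowest dog of all, and Boston terrier 2 stood above the median French bulldog.

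RPS10, a ubiquitination target when ribosomes stall, RPS3, which lines the channel where messenger RNA enters, and RPS14 had log2 fold changes of 0.40, 0.44 and 0.38. Their edgeR p-values were 0.0400, 0.0456 and 0.0465. They had a p under 0.05 in 8, 8 and 9 of the 18 fits that left out 1 dog, and RPS3 and RPS14 were at 0.0551 and 0.0556 without French bulldog 6. RPS6, which S6 kinases phosphorylate downstream of mTOR, ranged from 96.6 through 132 to 246 normalised CPM in French bulldogs and from 73.6 through 109.8 to 162 in the comparison group. Its log2 fold change of 0.44 (standard error 0.22) had an edgeR p of 0.0550.

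Among the large subunit genes, RPL23 encodes a protein of the face that joins the small subunit. Its level was 34.2 normalised CPM (dog 9) at the lowest, 63.1 at the median and 135 (dog 6) at the highest in French bulldogs. It was 22.8, 31.1, 35.1 and 52.9 in the boxers and 49.8, 54.7 and 55.1 in the Boston terriers. Of the French bulldogs, 9 lay above all 7 comparison dogs, while dogs 9 and 7 lay among them. The log2 fold change was 0.66 (standard error 0.25, edgeR p = 0.0143, adjusted p = 0.433) and 0.54 without French bulldog 6.

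RPL21 ranged from 13.3 through 17.9 to 24.8 normalised CPM in French bulldogs and from 9.08 through 13.2 to 18.2 in the comparison group. Every French bulldog lay above the median of the comparison group, and the log2 fold change was 0.45 (edgeR p = 0.0221, standard error 0.18). RPL12, at the base of the stalk where elongation factors bind, and RPL35, at the mouth of the exit tunnel, had log2 fold changes of 0.36 (edgeR p = 0.0709) and 0.31 (edgeR p = 0.0711).

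Of the most counted members, RPL13A, known for a role outside the ribosome in silencing inflammatory transcripts, ranged from 198 through 304 to 763 normalised CPM in French bulldogs and from 164 through 240 to 437 in the comparison group. Its highest values were those of French bulldogs 8 and 2, at 763 and 600.2, and French bulldogs were fitted 0.50 higher (standard error 0.27, edgeR p = 0.0817) on the log2 scale. RPL8, close to the site of peptide bond formation, and RPL7 had log2 fold changes of 0.31 (edgeR p = 0.316) and 0.40 (edgeR p = 0.103). That of RPL8 was 0.17 without French bulldog 8 and 0.52 without Boston terrier 2. RPL5, which with RPL11 and a small ribosomal RNA forms a particle that binds MDM2, was at 174 to 441 normalised CPM in French bulldogs and 116 to 359 in the comparison group, with a log2 fold change of 0.33 (edgeR p = 0.151).

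Without French bulldog 6, the log2 fold changes were 0.48 for RPS18, 0.49 for RPL21, 0.40 for RPS10, 0.36 for RPS3, 0.33 for RPS14 and 0.38 for RPS6. They were 0.30 for RPL12, 0.26 for RPL35, 0.50 for RPL13A, 0.34 for RPL8, 0.42 for RPL7 and 0.28 for RPL5. Each kept its sign, and RPS18, RPL21 and RPS10 still had an edgeR p under 0.05.

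The paralogs differed in their spread. RPL36AL, a near copy of RPL36A, was at 108 normalised CPM in French bulldog 6, against 21.1 to 56.7 in the other French bulldogs, 15.2 to 21.5 in the boxers and 24.8 to 28.6 in the Boston terriers. Its log2 fold change was 0.82 (standard error 0.30, edgeR p = 0.0134) and 0.57 (edgeR p = 0.0132) without French bulldog 6. RPL22L1, a paralog of RPL22, was at 6.11 to 18.4 and at 6.38 to 11.4 normalised CPM, with a log2 fold change of 0.29 (edgeR p = 0.241), or 0.21 without French bulldog 6 and 0.18 without French bulldog 10, which had its highest level. Of the 52 members, RPS21, RPL23 and RPL36AL had an edgeR p under 0.05 in each of the 18 fits that left out 1 dog. None of these fits left out French bulldogs 2 and 8, which share a case number, together. Their RPS21 levels, 132 and 174 normalised CPM, were the highest of all dogs.

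The 5 members with a negative log2 fold change were RPL15 (-0.19), RPLP0 (-0.11), RPS15A (-0.04), RPSA (-0.04) and RPL13 (-0.02), each with an edgeR p of 0.397 or more. Without French bulldog 6 these were -0.15, -0.063, -0.0077, -0.11 and -0.067. That of RPL15 was -0.29 without French bulldog 10 and -0.11 without French bulldog 2. Other members took both signs with a dog left out. RPLP0 ranged from -0.25 to 0.10, RPS15A from -0.096 to 0.061 and RPSA from -0.14 to 0.13. RPL15 ranged from 98.1 (dog 2) through 193 to 354 (dog 10) normalised CPM in French bulldogs and from 158 through 229 to 310.1 in the comparison group. RPLP0, the scaffold of the stalk, was at 61.7 to 170 and at 45.8 to 173 normalised CPM, with the highest value in Boston terrier 2 and the lowest in boxer 4.

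**Figure D3:**
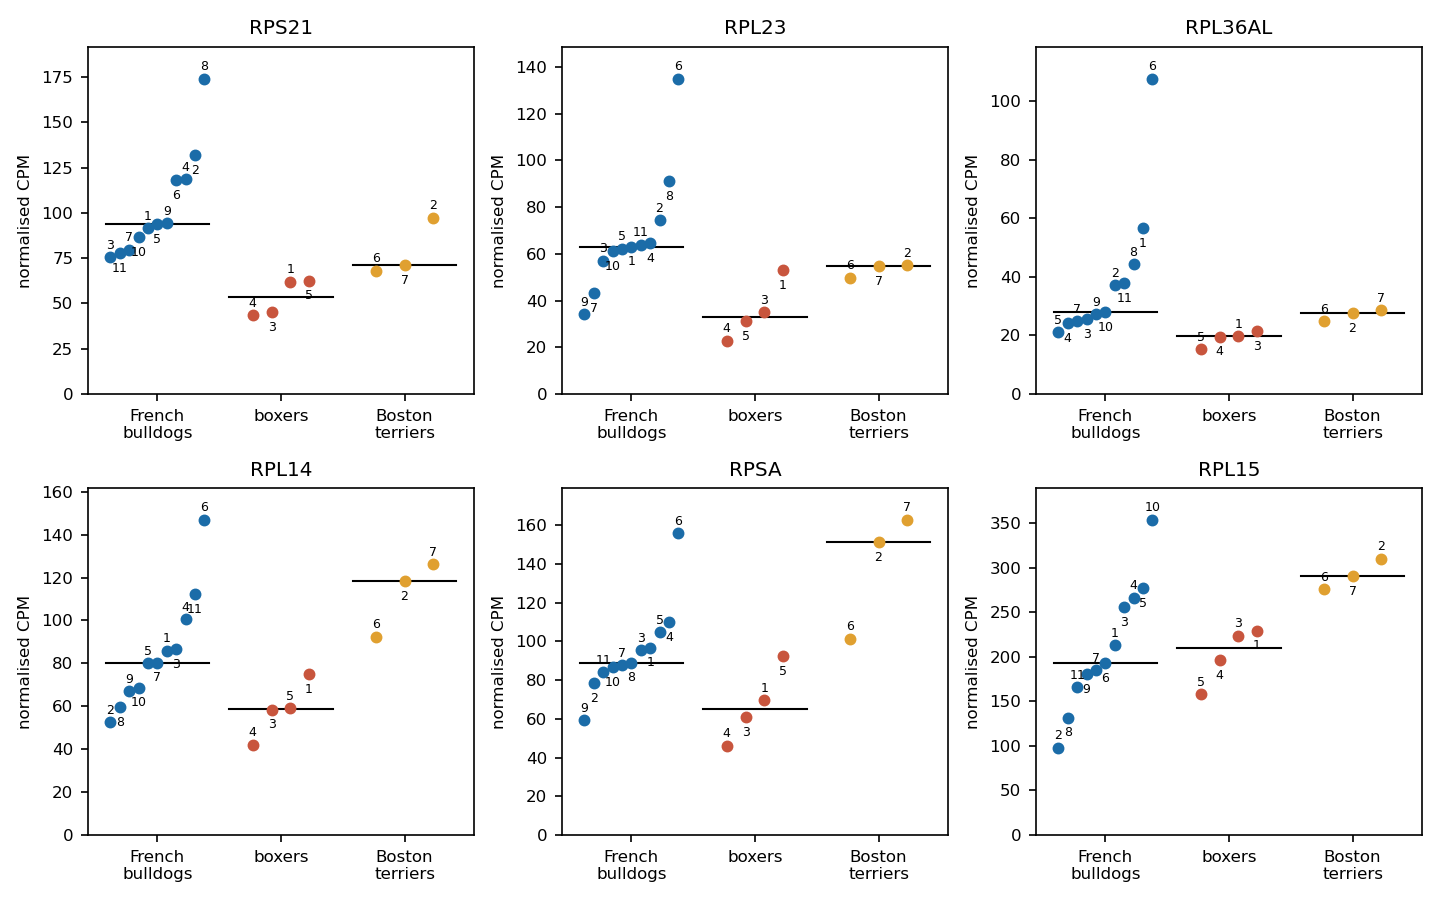
Normalised CPM (vertical axes from 0) of RPS21, RPL23, RPL36AL, RPL14, RPSA and RPL15 in each dog. Each point is 1 dog with its number, and the line is the median of the breed. RPL36AL was at 108 in French bulldog 6 and at no more than 56.7 in any other dog. RPL14, RPSA and RPL15 were lower in all 4 boxers than in all 3 Boston terriers.

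Within the comparison group, the boxers had lower fitted levels of these genes than the Boston terriers. By edgeR, all 52 members had a lower fitted level in boxers than in Boston terriers, where 50.7% of all genes did, with log2 fold changes from -1.07 (RPSA) to -0.07 (RPL22L1) and a median of -0.57. None had an adjusted p under 0.05, and neither did any of the 16633 genes tested (0%), with a smallest adjusted p of 0.795 among the members. DESeq2 called 0 members and 0.191% of all genes. At an unadjusted p under 0.05 by edgeR, 28 members were lower in boxers, against 2.86% of all genes, and 0 were higher, against 3.37%. In 24 members every Boston terrier lay above every boxer, as 3.60% of all genes did, and in 0 members every Boston terrier lay below, as 3.71% did. The count of 28 was 10 without Boston terrier 2 (against 2.81% of all genes), 18 without boxer 4 (against 2.55%) and 14 when all 18 dogs were fitted together (against 1.01%).

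RPSA, known also as a laminin receptor precursor, was at 46.2, 60.7, 69.5 and 92.4 normalised CPM in the boxers and at 101, 151 and 163 in the Boston terriers. French bulldogs lay between and across them, from 59.3 through 89.0 to 156. The log2 fold change of boxers minus Boston terriers was -1.07 (standard error 0.28, edgeR p = 0.00357). The members with the smallest p were chosen after their values were seen. RPL18 was at 29.6 to 36.5 in the boxers and 49.9 to 62.0 in the Boston terriers (log2 fold change -0.80, edgeR p = 0.00153). RPL14 was at 42.1 to 74.8 and at 92.4 to 126 (-0.96, edgeR p = 0.00230). RPL35A, one of the genes mutated in Diamond-Blackfan anaemia, was at 47.9 to 54.0 and at 72.5 to 85.5 (-0.68, edgeR p = 0.00309).

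French bulldogs were also set against each breed, and these fits share the French bulldogs. Against the boxers alone, all 52 members had a positive log2 fold change (53.0% of all genes), with a median of 0.54. At an unadjusted p under 0.05 by edgeR, 27 were higher (against 4.70%) and 0 lower (against 2.43%), and the smallest adjusted p was 0.690. The count was 11 without boxer 4 (21.2%, against 3.68% of all genes) and 27 without French bulldog 6 (against 4.70%). Against the Boston terriers alone, 30 members had a positive log2 fold change (59.2% of all genes) and 22 a negative one, with a median of 0.02. None was higher at an unadjusted p under 0.05 by edgeR (against 1.59%), and 1, RPSA, was lower (against 1.58%). Without French bulldog 6 that count of lower members was 3 (against 2.43% of all genes), and without Boston terrier 2 it was 0 (against 1.57%). The signs were 20 positive and 32 negative (median -0.088) without French bulldog 6. They were 38 positive and 14 negative (median 0.16) without Boston terrier 2.

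RPS21 had log2 fold changes of 0.96 against the boxers and 0.40 against the Boston terriers. For RPL23 they were 0.94 and 0.36, and for RPL21 0.75 and 0.13. RPSA had values of 0.50 and -0.53, and RPL15 of 0.06 and -0.46. For each of these 5 genes the log2 fold change against the whole comparison group lay between the values for the breeds.

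The comparison libraries carry library numbers 18 to 21 (dogs 1 to 4) and 1 to 3 (dogs 5 to 7), and the French bulldogs 1 to 8 and 10 to 12. Both comparison series hold both breeds, but not in balance. The first has boxers 1, 3 and 4 with Boston terrier 2, and the second boxer 5 with Boston terriers 6 and 7. Series and breed are thus partly confounded. Dogs 5 to 7 had a higher fitted level than dogs 1 to 4 for 34 members (49.7% of all genes) and a lower one for 18, with a median log2 fold change of 0.09. At an unadjusted p under 0.05 by edgeR, 0 members were higher (against 1.99%) and 0 lower (against 2.35%). Against dogs 1 to 4 alone, 5 members were higher in French bulldogs at that limit (9.62%, against 3.42% of all genes), with a median of 0.32. Against dogs 5 to 7 alone, 3 were (5.77%, against 2.28%), with a median of 0.26.

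The levels of most members went together from dog to dog. Over 1326 pairs of members, the median Pearson correlation of log2 CPM over the 18 dogs was 0.684 (range -0.474 to 0.963), and 1272 pairs were positive. The median over all pairs of genes was 0.006. These points share libraries and depth, and the values are descriptive. The median over members was 0.663 without French bulldog 6, 0.594 without boxer 4, 0.802 in the comparison group alone and 0.553 in French bulldogs without dog 6. It was 0.749 among small subunit genes, 0.670 among large subunit genes and 0.701 between the subunits. For comparison it was 0.620 over 78 pairs of translation factors with a TOP start, all of them positive, and 0.123 over 1653 pairs of mitochondrial ribosomal protein genes.

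**Figure D4:**
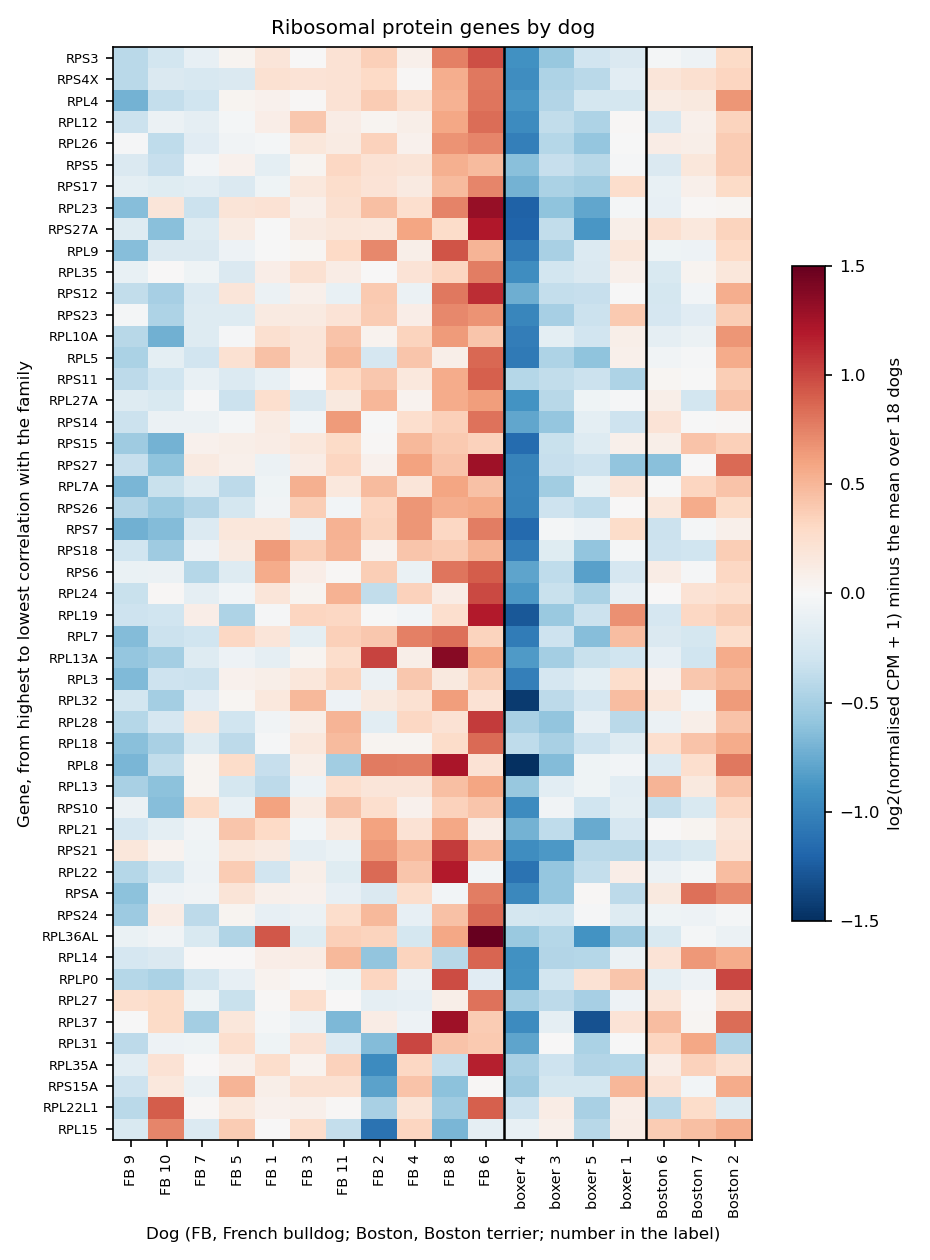
Log2(normalised CPM + 1) of 51 of the 52 members tested minus the mean of each over 18 dogs (colour), with genes in rows from the highest to the lowest correlation with the other members and dogs in columns. Dogs are ordered within each breed by the summed level. The columns of French bulldogs 6 and 8 are mostly red and that of boxer 4 is mostly blue, while RPL15, RPS15A and RPL22L1 at the bottom follow other dogs.

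Each member was also correlated with the median deviation of the other members. RPS3 followed the family most closely (r = 0.963), and 32 of 52 members had an r of at least 0.8. The 5 members with an r under 0.5 were RPL15 (-0.12), RPL22L1 (0.21), RPS15A (0.25), RPL35A (0.48) and RPL31 (0.49), and 6 members were under 0.5 without French bulldog 6. RPL15 and RPS15A are standard structural proteins of the large and small subunit, and each was lowest in French bulldogs 2 and 8, whose summed levels of the members were above the median French bulldog. RPS15A was at 115 and 131 normalised CPM in these libraries, against 139 to 297 in the other 16.

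Boxer 4 had the lowest level of all dogs for 39 of 52 members. French bulldog 6 had the highest for 27 and French bulldog 8 for 11. In French bulldog 6 the median member lay 0.76 above the median of the other 17 dogs on the log2 scale, 27 members lay above all of them, 25 within their range and 0 below. RPL36AL stood out furthest there, followed by RPL23. The members RPL15, RPLP0 and RPS15A lay below the median of the others in that library. French bulldogs 2 and 8, labelled with the same case, were the most alike of the 153 pairs of libraries over all genes (r = 0.981), but differed by more than counting error. In dog 8, 48 of 52 members were higher than in dog 2, by a median of 0.33 on the log2 scale.

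The spread between dogs of 1 group, as edgeR's biological coefficient of variation, was 26.7% (RPL35) to 47.1% (RPL37) over the members, with a median of 33.7%. It was 45.5% over all genes and 35.9% over the 9813 genes with a mean level within the range of the members.

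Other genes of translation were described from hand-written lists. Of 13 translation factors with a TOP start, 12 had a positive log2 fold change in French bulldogs against the comparison group, with a median of 0.31 (0.34 without French bulldog 6). At an unadjusted p under 0.05, 2 were higher (15.4%, against 7.02% of all genes). EEF1B2, an exchange factor for the elongation factor that delivers tRNA, was at 0.56 (edgeR p = 0.0303) and EIF3A, a scaffold of an initiation complex, at 0.43 (edgeR p = 0.0385). For boxers minus Boston terriers the median of this list was -0.44. Of 21 ribosome biogenesis genes, 18 were positive, with a median of 0.19 (0.16 without French bulldog 6). At an unadjusted p under 0.05, 2 were higher (9.52%, near the 7.02% of all genes). NOP58, a core protein of small nucleolar particles, was at 0.68 (edgeR p = 0.0230) and NOP10, a subunit of the particles that make pseudouridine, at 0.63 (edgeR p = 0.0144). Of 58 mitochondrial ribosomal protein genes, 43 were positive, with a median of 0.11 (0.10 without French bulldog 6). At an unadjusted p under 0.05, 5 were higher (8.62%, near the 7.02% of all genes) and 1 lower. MRPL44 (0.76) and MRPL32 (0.60) are proteins of the mitochondrial large subunit. FAU, which encodes a small subunit protein fused to a ubiquitin-like protein, had log2 fold changes of 0.08 and, for boxers minus Boston terriers, of -0.56.

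Markers of growth and of other cell types were described in the same fits, and were not related to the members dog by dog. All 6 proliferation genes had a positive log2 fold change (median 1.14, and 0.90 without French bulldog 6), 4 of them at an edgeR p under 0.05 (against 7.02% of all genes) and 1 without that library (against 6.92%). They summed to 69.2 to 1166 normalised CPM in French bulldogs and 96.3 to 463 in the comparison group. For boxers minus Boston terriers their median was -0.66. All 10 macrophage and microglia genes had a positive log2 fold change with French bulldog 6 (against 53.7% of all genes), 6 of them at an edgeR p under 0.05 (against 7.02%), and 0 passed that limit without it (against 6.92%). The part of either list in the levels of the ribosomal protein genes was not tested. Of 8 oligodendrocyte lineage markers, 6 had a negative log2 fold change in French bulldogs (median -0.24, and -0.082 without French bulldog 6), and 0 had an edgeR p under 0.05 (1, lower, without that library). For boxers minus Boston terriers their median was -0.35, with 3 of 8 lower and 1 higher at that limit, against 2.86% and 3.37% of all genes. In the same contrast the medians were positive for neurons (0.46), astrocytes (0.40), endothelium (0.24) and macrophages and microglia (0.20). They were negative for T cells (-0.63) and for B and plasma cells (-0.55). The part of any of these lists in the lower levels of the members in boxers was not tested either. Of the markers of neurons, astrocytes and endothelium, 0 of 6, 0 of 4 and 0 of 4 tested had an edgeR p under 0.05. French bulldog 6 was low in the first 2 lists, with neuron markers summing to 0.833 normalised CPM (58.3 to 1178 in the other French bulldogs) and astrocyte markers to 21.8 (350.2 to 4669). Their part was not tested. The T cell list had 1 of 3 higher at that limit (CD2, highest in French bulldog 6, against 7.02% of all genes). Without French bulldog 6 it had 0 higher (against 6.92%) and 1 lower (against 3.93%). The B and plasma cell list had 0 of 2.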

How the data were processed

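Gene counts of RNASeq libraries from FFPE HGO tissue of 18 dogs were analysed. Per the submitters' notes and the study's methods, the authors trimmed reads with Trimmomatic 0.33, mapped them with HISAT2 2.1.0 to canFam6 and counted them per gene with featureCounts, and the deposited values are raw counts without normalisation. Whether counting used strand or multi-mapping reads is not given in the sources used here, so reads from pseudogenes or antisense genes may be shared with a member. Groups were taken from the breed labels. Each library is numbered as 1 dog, but 2 share a case number, so p-values measure the spread between these libraries.

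Counts were tested with edgeR 4.0.16 in R 4.3.3 (TMM normalisation, filterByExpr by group, robust quasi-likelihood F test, no covariate, two-sided, Benjamini-Hochberg adjustment over all genes kept, threshold 0.05). Standard errors were taken as the fitted log2 fold change, without its sign, over the root of F. Normalised CPM are counts scaled to the TMM-adjusted library size, and correlations used their log2 (prior count 2). The code was tested on simulated data. Alternatives were DESeq2 1.42.0, limma-voom (limma 3.58.1), other normalisations and filters, removal of small non-coding RNAs, scaling to the members, 1 surrogate variable (sva 3.50.0), French bulldogs 2 and 8 summed, each dog left out, each breed or library series of the comparison group alone, and a block on the dog numbers 1 to 7. Some of these were added after seeing the data, namely the fits that combined or repeated a left-out dog, the fit of all breeds together and the share without the gene with the most counts. The 12 members with the smallest p, the 6 with the most counts, RPLP0, RPSA, RPL5 and the paralogs were named by rule, with the 2 smallest p of each translation list. Some items are not reported here. Any other member was chosen after its values were seen. The members and gene lists were chosen with earlier results of these data known. Gene lengths were not used, so levels are not compared between genes, and sequences are not shown. Figures were drawn in Python 3.11.15 (matplotlib 3.10.9, pandas 2.3.3, numpy 2.4.6).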

Additional observations from a re-analysis of the deposited data

How the results depend on the processing

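No alternative called a member in either comparison: the count with an adjusted p under 0.05 was 0 in every fit run, edgeR, DESeq2 and limma-voom included. The 9 members higher in French bulldogs at an unadjusted p under 0.05 became 2 with scaling to the members, 4 with 1 surrogate variable (7.69%, against 4.50% of all genes; median log2 fold change 0.14), 5 with French bulldogs 2 and 8 summed (5 also with dog 6 left out, 9.62% against 4.54%, median 0.19), 27 against the boxers alone (27 without French bulldog 6), 0 against the Boston terriers alone (0 without French bulldog 6 and 0 without Boston terrier 2), 5 against comparison dogs 1 to 4 and 3 against dogs 5 to 7. The count of lower members, 0, became 1 with scaling to the members, 1 against the Boston terriers and 3 there without French bulldog 6, where the median log2 fold change was -0.088. Scaling to the members makes their sum equal in every dog, so it is no check on their shared level. With each dog left out in turn, the higher count ranged from 3 to 16, the lower count stayed at 0, the median log2 fold change (0.30) ranged from 0.23 to 0.38, the difference in mean share of counts (0.0572 percentage points) from 0.0187 to 0.0984, and the median correlation from 0.59 to 0.71. With the gene with the most counts left out of the totals, the mean share on members was 0.799% (French bulldogs) against 0.693%, a wider difference. The 28 members lower in boxers than in Boston terriers ranged from 10 to 39, and were 14 with all 18 dogs in 1 fit.

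Of 861 values of named genes under the alternatives, 828 kept their sign and 33 changed it. No member passed the adjusted threshold in any fit, so the sign alone was compared. These counts do not show whether an unadjusted p stayed under 0.05. The sign changed for RPL8 against the Boston terriers (-0.090, and -0.092 without French bulldog 6), for RPL5 there without French bulldog 6 (-0.084), and for RPL15 against the boxers (0.064, 0.078 without French bulldog 6 and 0.088 without boxer 4). RPS15A changed sign with French bulldogs 2 and 8 summed (0.019, and 0.028 with dog 6 also left out), against the boxers (0.12, 0.13 without French bulldog 6 and 0.042 without boxer 4) and against dogs 5 to 7 (0.065), and ranged from -0.096 to 0.061 with a dog left out. RPSA changed sign with limma-voom (0.056), against the boxers (0.50, 0.41 without French bulldog 6 and 0.40 without boxer 4) and against dogs 1 to 4 (0.22), and ranged from -0.14 to 0.13. RPLP0 changed sign against the boxers (0.085, and 0.10 without French bulldog 6), against dogs 5 to 7 (0.029) and against the Boston terriers without dog 2 (0.14), and ranged from -0.25 to 0.10. The causes were not tested. Same-numbered dogs did not deviate together (3 of 7 correlations over 0.1, range -0.502 to 0.205), so the numbers do not pair the samples. With the replicate block over dogs 1 to 7, 9 members were higher and 0 called (median 0.33), and without it in the same dogs 8 and 0 (median 0.33). RPS15A was at 0.040 with the block and 0.032 without, and RPSA at 0.20 and 0.093. Depth limits RPL10L, which had at most 3 counts in any dog. RPS3A has no row under its symbol, so none of these settings was run for it.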
